A study of Homo sapiens with 4 samples.

Results

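The genes described here encode the structural proteins of the desmosome in MCF10A, a human mammary epithelial cell line that does not form tumours. They are the desmogleins DSG2 and DSG3, the desmocollins DSC2 and DSC3, desmoplakin (DSP), the plakophilins PKP1, PKP2 and PKP3, plakoglobin (JUP) and PERP. Members were chosen by symbol in the annotation of the array platform, with every probe set that named only that gene, which gave 10 genes and 24 probe sets of 19775 genes and 54675 probe sets on the array. The arrays labelled double knockdown (n = 2) held MCF10A cells expressing short hairpin RNA directed at CBL and CBLB, ubiquitin ligases that act on activated receptor tyrosine kinases. The control arrays (n = 2) held MCF10A cells expressing a control hairpin, and both groups grew in DFCI-1 medium and were harvested under normal growth conditions. The labels name neither separate cultures behind the arrays nor whether the cells were 1 clone or a pool, so p-values reflect array-to-array spread that may be technical.

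Desmosomes are spot-like junctions that fasten neighbouring epithelial cells to each other. Desmogleins and desmocollins are cadherins that bind across the gap between cells. Inside the cell their tails bind plakoglobin and plakophilins, and desmoplakin links that plaque to keratin filaments. Mammary basal and myoepithelial cells and the basal layer of skin carry DSG3 and DSC3, whereas DSG2 and DSC2 also occur in simple epithelia.

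The 4 arrays had like medians, from 14.5 to 14.7, and correlated across genes at r = 0.997 within the labelled double knockdown and 0.995 within the control, a description across genes, which are no replicates. With 2 arrays a group, precision was limited throughout. CBL read 31.1 and 29.0 on its brightest probe set on the arrays labelled double knockdown, against 125.9 and 84.4 in the control (log2 change -1.37 ± 0.15 SE, limma's adjusted p = 0.00139). Its other probe sets had log2 changes of -0.33, -0.20, -0.05 and -0.12 and were not called in a fit without the brightness filter, and the mean over all CBL probe sets gave -0.41 (adjusted p = 0.0158). CBLB read 94.8 and 99.5 on its brightest probe set on the arrays labelled double knockdown, against 64.3 and 70.05 in the control (log2 change 0.45 ± 0.09 SE, adjusted p = 0.0148). It thus went against its label, and each direction here is that of the arrays so labelled. The other CBLB probe sets had log2 changes of 0.4 and -0.02 and were not called without the brightness filter. The mean over all CBLB probe sets gave 0.28 (limma's adjusted p = 0.0363). The CBLB call was lost without labelled double knockdown array 1 (adjusted p = 0.0899) or 2 (0.14). All 5 measured markers of basal epithelial cells, KRT5, KRT14, CDH3, ITGB4 and LAMB3, passed the brightness minimum for a test, a mean of 14.7, which is the median over probe sets. Of 5 measured leukocyte markers, PTPRC, MS4A1 and LYZ were below that minimum, and CD3E (17.9 to 19.1) and ITGAM (20.3 to 24.6) passed it without a call by limma (log2 changes of 0.02 and 0.01). Of 7 measured fibroblast and endothelial markers, COL3A1, PDGFRB, VWF and CDH5 were below it. COL1A1 and PECAM1 passed it and were not called (log2 changes of -0.11 and -0.14). DCN, the matrix proteoglycan decorin, read 54.9 and 77.9 on the arrays labelled double knockdown, against 127.9 and 126.9 in the control (log2 change -0.81, adjusted p = 0.00707). Its probe set is of an Affymetrix type that can match several transcripts, and the mean over all DCN probe sets gave -0.28 (limma's adjusted p = 0.0324). The summed intensity of the 7 markers was 261.5 and 268.5 on the arrays labelled double knockdown, against 341.0 and 343.1 in the control, and its part in the results was not tested.

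All 10 genes passed the brightness minimum on their brightest probe set. DSG2 was higher on the arrays labelled double knockdown, by 1.39-fold, and DSP and JUP were lower, by 1.39-fold and 1.42-fold. The other 7 genes did not pass the test. Folds and log2 changes are of intensity + 16, tested with limma over 12951 genes and called at a Benjamini-Hochberg adjusted p under 0.05. Against 1 member higher stood 9.41% of all tested genes called higher, and against 2 members lower stood 6.6% called lower, with 16% called in either direction. The median log2 change was -0.10 over the 10 members and -0.01 over all tested genes. The groups did not overlap for 3 members that were higher and 5 that were lower on the arrays labelled double knockdown, while of all tested genes 28.1% were apart and higher and 29.3% apart and lower (57.5% in either direction). Fewer cells of a type and less RNA per cell cannot be told apart in these bulk RNA samples.

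**Figure D1:**
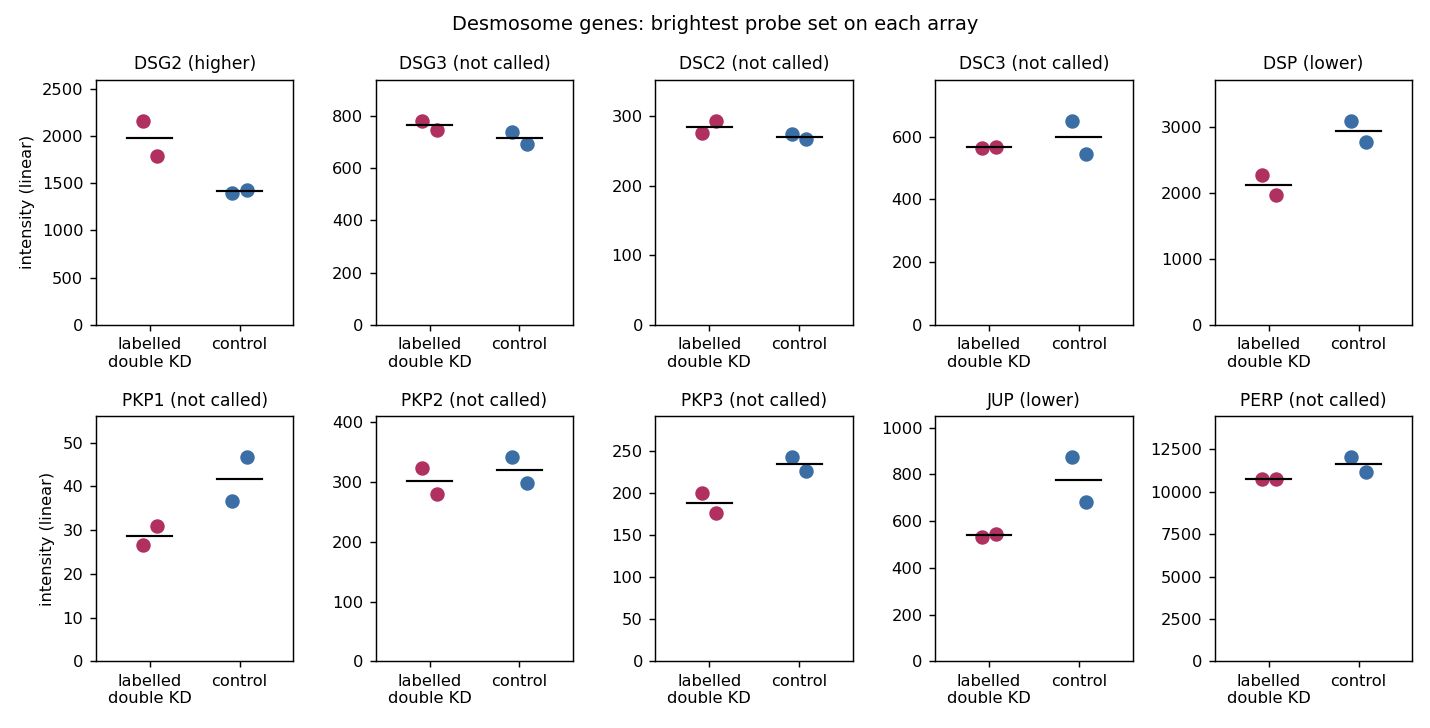
Linear intensity (vertical axis, from 0) of the brightest probe set of each desmosome gene on every array. Points are arrays, lines are means of 2 arrays, arrays labelled double knockdown are left and control arrays right. DSG2 sits higher on the arrays labelled double knockdown (1791 and 2163 against 1400 and 1424), DSP and JUP sit lower, and the DSC3 and PKP2 points overlap.

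Among the cadherins, DSG2, the desmoglein of simple and proliferating epithelia, read 2163 and 1791 on the arrays labelled double knockdown, against 1400 and 1424 in the control, on its brightest probe set, 217901_at. Both arrays labelled double knockdown lay above both control arrays, and the control pair was the tighter (SD of 264 for the labelled double knockdown and 17.6 for the control, n = 2 each). The log2 change was 0.47 ± 0.11 SE (95% interval 0.22 to 0.72, adjusted p = 0.024), and 8.58% of tested genes had a larger change in either direction. The second DSG2 probe set, 1553105_s_at, read 236.5 and 213.0 on the arrays labelled double knockdown, against 167.4 and 176.4 in the control. It was also higher when probe sets were tested one by one over 27280 of them (log2 change 0.36 ± 0.09 SE, adjusted p = 0.0454). DSG2 therefore rose on both of its probe sets. Its gene-level call was lost without labelled double knockdown array 1 (log2 change 0.34, adjusted p = 0.192), control array 1 (0.0739) or control array 2 (0.0519). That of 1553105_s_at was lost whichever array was left out, with adjusted p between 0.0791 and 0.277.

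DSG3, the desmoglein of basal keratinocytes and an autoantigen of pemphigus vulgaris, read 782.9 and 747.5 on the arrays labelled double knockdown, against 739.6 and 694.3 in the control. Its log2 change was 0.09 (95% interval -0.11 to 0.30, adjusted p = 0.538), and its second probe set had 0.08. The groups did not overlap, but the gap was small beside the error. The difference of DSG2 and DSG3 within each array, in log2 units, was 1.45 and 1.24 on the arrays labelled double knockdown, against 0.91 and 1.02 in the control. The change in that difference was 0.38. It is given as a description, since a two-sided exact permutation test of 2 arrays against 2 cannot go below 0.333.

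DSC2, the widely expressed desmocollin, read 276.1 and 293.7 on the arrays labelled double knockdown, against 273.7 and 267.4 in the control, with a log2 change of 0.07 (95% interval -0.13 to 0.27, adjusted p = 0.646). Its next probe sets had log2 changes of 0.21 and 0.14, so the 3 tested probe sets pointed the same way and were not called. The other one, 204750_s_at, lay between 6.34 and 7.51 and was too dim to test. DSC3, the desmocollin of basal cells, read 564.9 and 567.7 on the arrays labelled double knockdown, against 650.9 and 545.4 in the control. The groups overlapped, because the control arrays lay on either side of the other pair. Its log2 change was -0.07 (95% interval -0.31 to 0.17, adjusted p = 0.706), its other probe sets had -0.20 and 0.15, and none was called by limma (unadjusted p of 0.515, 0.0826 and 0.15).

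The desmosomal cadherin genes are neighbours on chromosome 18 in the RefSeq annotation of GRCh38.p14, in the order DSC3, DSC2, DSC1, DSG1, DSG4, DSG3 and DSG2, with no other protein-coding gene between them. DSG2, at one end of that row, was the one whose change passed the test. DSC1, DSG1 and DSG4, the cadherins of differentiated skin and hair, lay between 3.70 and 4.68 on all arrays on their brightest probe sets and were not tested.

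Of the plaque genes, DSP and JUP fell. DSP, the linker to keratin filaments, read 2273 and 1965 on the arrays labelled double knockdown, against 3101 and 2780 in the control, on its single probe set. The groups did not overlap, and the mean was 72.1% of the control mean. The log2 change was -0.47 ± 0.11 SE (95% interval -0.72 to -0.23, adjusted p = 0.0232). The call was lost without control array 1 (log2 change -0.39, adjusted p = 0.0831), labelled double knockdown array 1 (-0.58, 0.0573) or labelled double knockdown array 2 (-0.37, 0.202).

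JUP encodes plakoglobin, an armadillo protein that binds the tails of desmosomal cadherins and of classical cadherins. It read 534.1 and 545.6 on the arrays labelled double knockdown, against 873.4 and 681.2 in the control, on its single probe set, which is of an Affymetrix type shared between transcripts. The arrays labelled double knockdown were close together (SD 8.11, n = 2) and the control arrays wide apart (SD 136, n = 2), without overlap. The log2 change was -0.50 ± 0.12 SE (95% interval -0.79 to -0.22, adjusted p = 0.0302). Without control array 1, the higher of that pair, the log2 change was -0.33 (adjusted p = 0.0733), and without control array 2 it was -0.68 (0.00745). The call was also lost without labelled double knockdown array 1 (0.15) or 2 (0.149).

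Plakophilins are armadillo proteins that cluster the cadherins and recruit desmoplakin. PKP1, the plakophilin of stratified epithelia, read 26.7 and 30.9 on the arrays labelled double knockdown, against 36.6 and 46.7 in the control. The groups did not overlap, but the signal was dim and the change missed the threshold (log2 change -0.36 ± 0.11 SE, adjusted p = 0.0636). The constant of 16 bears on so dim a gene: without it the mean on the arrays labelled double knockdown was 69.1% of the control mean. Without control array 1 PKP1 was called (log2 change -0.49, adjusted p = 0.0375). Its second probe set lay between 10.02 and 11.7 and was not tested.

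PKP2, found in simple epithelia and in heart, read 322.8 and 279.7 on the arrays labelled double knockdown, against 341.6 and 298.9 in the control. The groups overlapped, and the log2 change was -0.08 (95% interval -0.33 to 0.16, adjusted p = 0.658). PKP3, which occurs in most desmosomes of epithelia, read 199.5 and 176.2 on the arrays labelled double knockdown, against 242.0 and 226.2 in the control. Its groups did not overlap, and it missed the threshold (log2 change -0.30 ± 0.10 SE, adjusted p = 0.0754). The dimmer PKP3 probe set had a log2 change of -0.19 and the dimmer PKP2 probe set of -0.05.

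PERP, a tetraspan membrane protein that desmosomes of mouse stratified epithelia require, gave different sizes of change on its probe sets. The brightest, 222392_x_at, read 10780 and 10740 on the arrays labelled double knockdown, against 12040 and 11200 in the control (log2 change -0.11, 95% interval -0.31 to 0.09, adjusted p = 0.454). The next, 217744_s_at, read 4666 and 4631 on the arrays labelled double knockdown, against 5039 and 5066 in the control, with a log2 change of -0.12 that was not called. The third, 236009_at, read 164.8 and 175.0 on the arrays labelled double knockdown, against 242.5 and 241.3 in the control. That probe set fell by 1.39-fold (log2 change -0.47 ± 0.08 SE, adjusted p = 0.0147 over probe sets), with both groups tight and apart. Its call was lost without control array 1 (adjusted p = 0.0574), labelled double knockdown array 1 (0.146) or labelled double knockdown array 2 (0.147). The part of PERP that each probe set covers is not given here, and the 95% intervals of the 3 probe sets overlapped. The remaining pair, 240797_at and 1556990_at, lay between 4.87 and 12.2 and was not tested.

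Of the 24 probe sets, 20 passed the brightness minimum. Of these, 2 were called higher, both of DSG2, and 3 lower, of DSP, JUP and PERP. Over all 27280 probe sets tested, 7.89% were called higher and 5.2% lower (13.1% in either direction). Of the members, JUP, PKP2 and PKP3 were measured entirely by probe sets of an Affymetrix type shared between transcripts.

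**Figure D2:**
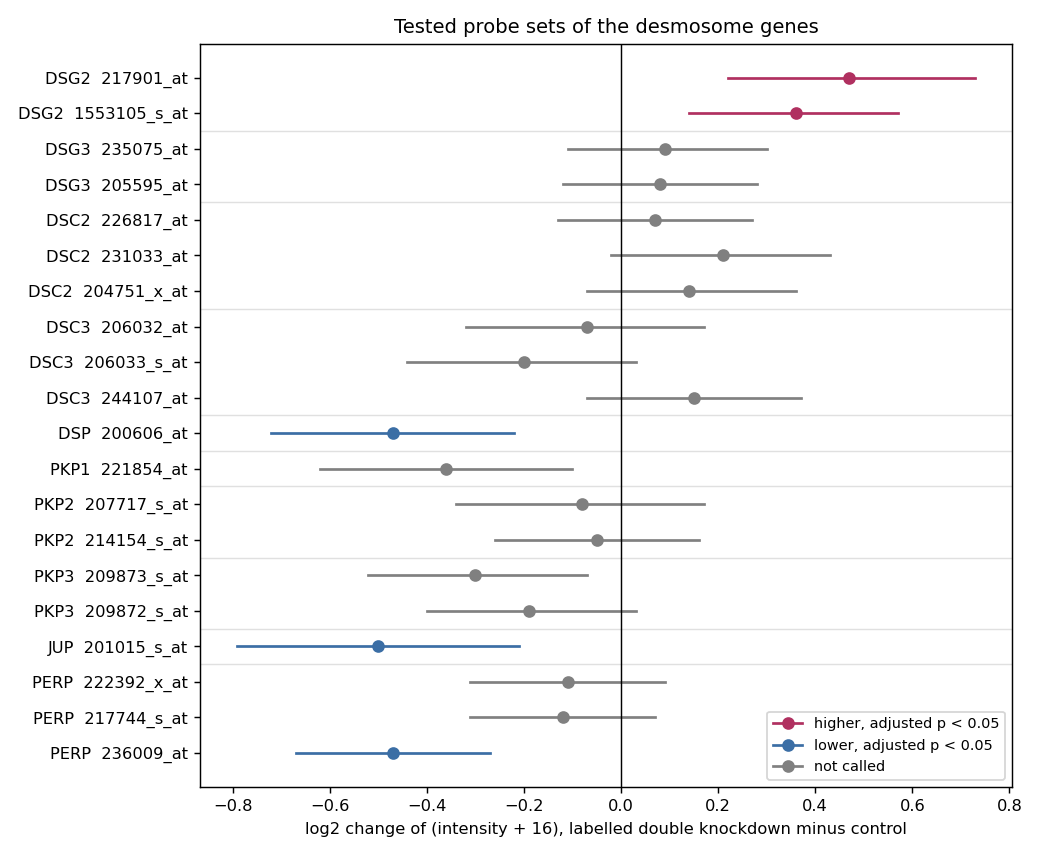
Log2 change of intensity + 16, labelled double knockdown minus control (horizontal axis), for the 20 tested probe sets of the desmosome genes. Points are limma estimates from 2 arrays per group, and lines are 95% intervals. Both DSG2 probe sets lie to the right of 0, DSP, JUP and 1 of 3 PERP probe sets lie to the left and were called, and the DSG3 and DSC2 intervals span 0.

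The promoters of the 3 called members and of DSG3, the neighbour of DSG2 that was not called, are shown because these genes differ in direction. RefSeq on GRCh38.p14 gave a window from 250 bases before to 50 after the gene start for 8 of the 10 members, not for PKP2 and PKP3. Each is written 5′ to 3′ on the strand of the gene, and capitals mark a GC box (GGGCGG on either strand) or a CCAAT box (CCAAT on either strand).
DSG2, chr18:31497927-31498226, plus strand: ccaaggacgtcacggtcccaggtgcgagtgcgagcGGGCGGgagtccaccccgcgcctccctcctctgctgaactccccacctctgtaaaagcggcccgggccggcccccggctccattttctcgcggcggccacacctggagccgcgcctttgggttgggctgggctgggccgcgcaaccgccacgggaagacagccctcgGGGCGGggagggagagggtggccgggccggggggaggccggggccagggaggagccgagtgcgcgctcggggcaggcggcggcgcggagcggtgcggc
DSG3, chr18:31447491-31447790, plus strand: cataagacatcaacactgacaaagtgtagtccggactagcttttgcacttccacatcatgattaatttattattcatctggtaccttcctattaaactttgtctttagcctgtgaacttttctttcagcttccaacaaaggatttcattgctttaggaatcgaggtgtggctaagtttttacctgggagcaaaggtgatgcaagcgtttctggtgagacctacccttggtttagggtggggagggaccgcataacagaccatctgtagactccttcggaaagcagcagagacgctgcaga
DSP, chr6:7541421-7541720, plus strand: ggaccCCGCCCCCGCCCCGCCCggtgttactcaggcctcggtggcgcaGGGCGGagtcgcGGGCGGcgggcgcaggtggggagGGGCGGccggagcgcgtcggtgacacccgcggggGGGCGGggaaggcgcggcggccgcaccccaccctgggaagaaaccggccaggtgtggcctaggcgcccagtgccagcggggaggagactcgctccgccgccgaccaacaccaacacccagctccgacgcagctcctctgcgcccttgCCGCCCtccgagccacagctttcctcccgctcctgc
JUP, chr17:41786662-41786961, minus strand: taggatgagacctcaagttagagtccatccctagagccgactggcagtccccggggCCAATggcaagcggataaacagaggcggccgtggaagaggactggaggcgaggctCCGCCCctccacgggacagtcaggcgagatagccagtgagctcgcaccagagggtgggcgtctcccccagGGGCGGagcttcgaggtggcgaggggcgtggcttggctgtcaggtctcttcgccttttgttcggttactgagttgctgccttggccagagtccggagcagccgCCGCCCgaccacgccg
The windows of DSG2 and DSP were rich in G and C (76.7% and 77%), that of JUP had 65.3% and that of DSG3 44%. Those of PERP, PKP1, DSC3 and DSC2, also not called at gene level, had 77%, 67.3%, 63.3% and 60.7%. The median over 35116 promoters was 58.7%. The DSP window held 8 GC boxes, the JUP window 3 and the DSG2 window 2, a motif that 45% of all windows hold. It was in 6 of the 8 member windows, also in those of DSC2, PKP1 and PERP, which were not called at gene level. JUP also held 1 CCAAT box, which 34.6% of all windows hold. The AP-1 site TGANTCA (7.71% of all windows) was found in the PERP window alone among the 8. The letters TATAAA (11.5%), TGACGTG (1.97%), the core of an unfolded protein response element, and AACCNGTT (1.73%), a site of grainyhead-like factors, were not in these 8 windows on either strand. Motif letters may overlap, and a match is a description of the window.

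Desmosomes attach to keratin filaments, so keratin genes were counted beside them. Of 16 listed keratins 12 had a probe set of their own, 8 were bright enough, and 3 fell and 2 rose (median log2 change 0.10). Of all tested genes, 6.6% were called lower and 9.41% higher (16% in either direction). KRT14, the type I keratin of basal cells, read 4710 and 4266 on the arrays labelled double knockdown, against 13560 and 14080 in the control (log2 change -1.62 ± 0.09 SE, adjusted p = 6.37e-05). Its partner KRT5 had a log2 change of -0.73 (adjusted p = 0.0017) and KRT16 of -1.71 (adjusted p = 4.28e-05). KRT15 and KRT10 did not fall and were not called (log2 changes of 0.17 and 0.04). KRT14 and KRT16, both type I keratins, have close relatives, so the gene behind each of their probe sets is uncertain. Of the keratins of simple epithelia, KRT8 and KRT18 were higher, KRT7 was not called (log2 change 0.16, limma's adjusted p = 0.236) and KRT19 was too dim to test. The brightest probe sets of KRT8 and KRT18 were of an Affymetrix type shared between transcripts. Without such probe sets KRT8 and KRT18 were not tested, so that fit cannot speak to their rise, and no other listed keratin was called higher. KRT8 read 613.0 and 675.4 on the arrays labelled double knockdown, against 420.1 and 388.2 in the control (log2 change 0.65, adjusted p = 0.0045), and its partner KRT18 had a log2 change of 0.53 (adjusted p = 0.00998). KRT8 lost its call without labelled double knockdown array 2 (0.0603), and KRT18 without array 1 (0.0522) or 2 (0.109) of that group, while the calls of KRT5, KRT14 and KRT16 held whichever array was left out. The summed intensity of the 5 measured basal markers of the list was 17670 and 16310 on the arrays labelled double knockdown, against 27680 and 26080 in the control, a sum made up mostly of KRT14 and KRT5 in the control. Against that direction, LAMB3, a laminin chain, read 5854 and 5032 on the arrays labelled double knockdown, against 3119 and 2096 in the control (log2 change 1.08, adjusted p = 0.00707), and CDH3 had a log2 change of 0.22 and was not called. The summed intensity of 8 luminal markers was 6356 and 6777 on the arrays labelled double knockdown, against 5056 and 5080 in the control. That sum was made up mostly of KRT18, which read 5171 and 5571 on the arrays labelled double knockdown, against 3537 and 3893 in the control. Among the luminal markers KRT19, PGR and FOXA1 were below the brightness minimum. MUC1 was lower (log2 change -0.85, adjusted p = 0.00702, and 0.0632 without labelled double knockdown array 2), and GATA3 (-0.61, adjusted p = 0.0567) and ESR1 (-0.11) were not called. The part of these markers in the desmosome changes was not tested.

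Relatives of desmoplakin and other plaque genes were counted next. Of 12 listed 9 were tested and 2 passed the test, both lower (median log2 change -0.09). Beside them, 6.6% of all tested genes were called lower and 16% in either direction. PLEC, the filament linker plectin, read 199.0 and 171.7 on the arrays labelled double knockdown, against 431.0 and 284.9 in the control (log2 change -0.87 ± 0.17 SE, adjusted p = 0.0154). EPPK1, epiplakin, read 141.9 and 109.6 on the arrays labelled double knockdown, against 230.9 and 174.1 in the control (log2 change -0.62 ± 0.15 SE, adjusted p = 0.0309). For both genes, as for JUP, control array 1 was the higher of its pair. PLEC lost its call without labelled double knockdown array 2 (0.109) and EPPK1 without that array (0.21) or control array 1 (log2 change -0.43, 0.114). The envelope linkers PPL and EVPL, of the same plakin family, had log2 changes of -0.18 and -0.17, and PKP4, an armadillo relative, of 0.00.

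Adherens junctions use classical cadherins and share plakoglobin with desmosomes. Of 12 listed genes 11 were tested and 2 passed, both higher (median log2 change 0.01). Among all tested genes 9.41% were called higher and 16% in either direction. E-cadherin, CDH1, read 994.1 and 816.8 on the arrays labelled double knockdown, against 999.6 and 799.7 in the control. Its groups overlapped at a log2 change of 0.01, and the catenins CTNNA1 and CTNNB1 had 0.01 and -0.04. The genes that passed were LIMA1, an actin-binding protein (log2 change 0.48, adjusted p = 0.0126), and NECTIN4, an adhesion receptor (0.36, adjusted p = 0.0281). Both lost their calls without either array labelled double knockdown, with adjusted p of 0.0828 and 0.121 for LIMA1 and 0.149 and 0.211 for NECTIN4, and NECTIN4 also without control array 1 (0.0779).

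Genes known to act on desmosomes were a list of 23, of which 20 had a probe set of their own and were tested. Of these, 2 rose and 2 fell (median log2 change -0.11), beside 9.41% called higher and 6.6% lower of all tested genes. ATP2A2, the calcium pump of the endoplasmic reticulum whose loss disturbs desmosomes in Darier disease, read 1251 and 1035 on the arrays labelled double knockdown, against 703.2 and 536.0 in the control (log2 change 0.87 ± 0.14 SE, adjusted p = 0.00764). GRHL1, a transcription factor that controls desmosomal cadherins in mouse skin, read 121.7 and 144.1 on the arrays labelled double knockdown, against 84.4 and 81.8 in the control (log2 change 0.58, adjusted p = 0.00885). Its relative GRHL3 went the other way, at 20.4 and 18.6 on the arrays labelled double knockdown, against 49.1 and 45.2 in the control (log2 change -0.83, adjusted p = 0.00112). TRIM29, a tripartite motif protein of squamous epithelia, had a log2 change of -0.77 (adjusted p = 0.00604). GRHL1 lost its call without labelled double knockdown array 2 (0.0963) and ATP2A2 without array 1 of that group (0.0548). ADAM10 and ADAM17, proteases that shed desmoglein 2, had log2 changes of 0.16 and 0.14 and were not called.

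**Figure D3:**
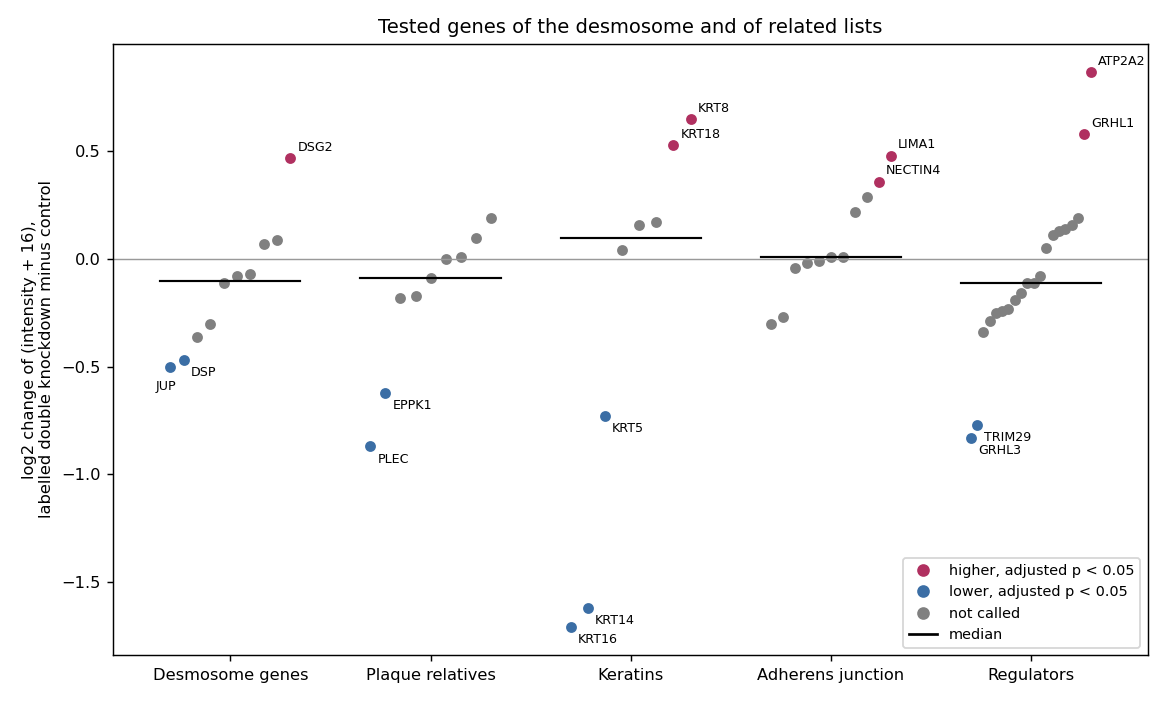
Log2 change of intensity + 16, labelled double knockdown minus control (vertical axis), of each tested gene of the desmosome and of related lists (horizontal axis). Points are genes, coloured by call, and black lines are list medians. The desmosome genes lie between -0.50 and 0.47, and the keratins reach from -1.71 for KRT16 to 0.65 for KRT8.

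The calls of DSG2, DSP and JUP were near the threshold. Over 15 alternatives DSG2 had log2 changes from 0.34 to 0.61 and was called in 10, and DSP had log2 changes from -0.58 to -0.37 and was called in 10. JUP had log2 changes from -0.68 to -0.33 over 14 alternatives and was called in 9.

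**Figure D4:**
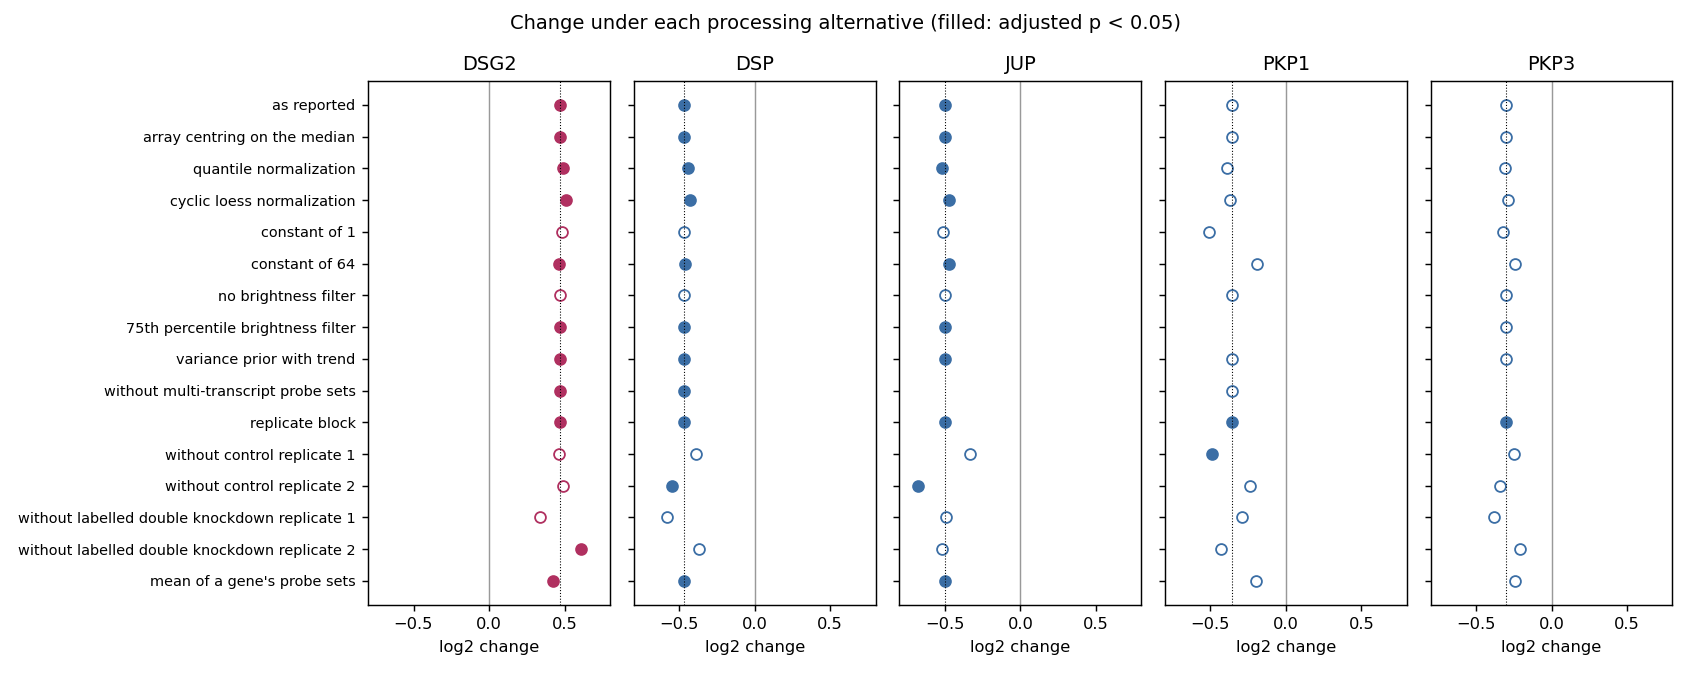
Log2 change, labelled double knockdown minus control (horizontal axis), of 5 desmosome genes under each processing alternative (rows). Filled points have an adjusted p under 0.05, open points do not, and dotted lines mark the reported value. DSG2 stays to the right of 0, between 0.34 and 0.61, and DSP, JUP, PKP1 and PKP3 stay to the left, with PKP1 and PKP3 mostly open.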

How the data were processed

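RNA of MCF10A cells, 4 samples with 2 per group, was measured on Affymetrix U133 Plus 2.0 arrays, with groups and numbers read from the titles. Each deposited intensity is a linear probe set value, as judged from the range of the table. The summarisation and normalization behind the authors' intensity values are not given in the sources here. Array medians lay from 14.5 to 14.7, so no further normalization was applied. Of 54675 probe sets, 62 controls were left out, 41091 named 1 gene, 1801 several and 11721 none. Of the first, 41037 were matched by gene identifier to RefSeq GRCh38.p14 for current symbols. Each gene was represented by its brightest probe set. Those with a mean of at least 14.7, the median over probe sets, were tested on log2(intensity + 16) by limma (version 3.58.1, R 4.3.3), using lmFit and eBayes, two-sided and without covariates, with Benjamini-Hochberg adjustment over all 12951 genes or, in a second fit, over 27280 probe sets. The fit was tested on simulated data. Gene lists are described by counts and medians. Listed genes without a probe set of their own are not analysed here. All members were named, and of each of the 4 related lists (plaque relatives, keratins, adherens junction, regulators) the up to 4 called genes with the smallest p per direction. Others (such as CDH1, PPL, ADAM10 and single cell type markers) were named after their values were seen. Members and lists were chosen with earlier results of these data known. Alternatives were normalization, the constant, the brightness filter, a variance trend, probe set type, averaging the probe sets of a gene, sample number as a block and leaving out each array. Their extension to genes outside the members was added after seeing the data. Where a fit leaves a group with 1 array, that array is assumed to vary like the other group. Figures were drawn with matplotlib 3.10.9.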

Additional observations from a re-analysis of the deposited data

How the results depend on the processing

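DSG2 kept its direction, and so did DSP, JUP, PKP1, PKP3, DSG3, DSC2 and PERP, under every alternative run. Leaving out 1 array, DSC3 ranged from -0.20 to 0.05 and turned to 0.05 without control replicate 1, and PKP2 ranged from -0.18 to 0.01 and turned to 0.01 without that array or labelled double knockdown replicate 2, all uncalled. The count of member genes called was 1 higher and 2 lower as reported. It was 0 and 0 with a constant of 1, where 11.8% of all tested genes were called. Without a brightness filter it was 0 and 0, where 7.73% of 19775 genes were called. The reported fit called 16%. With that constant and without the filter, in that order, limma's adjusted p lay past the threshold. It was 0.0519 and 0.067 for DSG2, 0.0511 and 0.0634 for DSP, and 0.0586 and 0.092 for JUP. The unadjusted limma p of these genes ran from 0.00593 to 0.0118, against 0.00233 to 0.00356 as reported. Leaving out 1 array gave log2 changes of 0.34 to 0.61 for DSG2, -0.58 to -0.37 for DSP and -0.68 to -0.33 for JUP. Some calls of these genes were lost, as given above, in fits that called fewer of all genes than the reported one. Of the probe sets, 2 were higher and 3 lower as reported. Higher calls were 0 with a constant of 1, 0 without a filter, 1 with quantile normalization, 1 with a variance trend, and 1 without probe sets shared between transcripts, where 1553105_s_at is not tested. Lower calls were 1 with a constant of 1 and 1 without a filter. Leaving out 1 array gave 0 higher and 0 to 3 lower, from fits that called 0.55% to 9.46% of all probe sets.

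The arrays share sample numbers that the labels do not describe as pairs. With the replicate block, 4 member genes were lower, since PKP1 (limma's adjusted p = 0.0298) and PKP3 (0.0471) passed, and 1 was higher. That fit called 19.3% of all tested genes, against 16% as reported. On the probe sets the block left 1 higher and 4 lower, with 12.8% of all tested probe sets called. Same-numbered arrays had a correlation of deviations of 0.24 over genes. Without shared probe sets, PERP rested on 236009_at (log2 change -0.47, adjusted p = 0.00827). EPPK1 lost its call with a constant of 1 (0.0545) or 64 (0.063), without a filter (0.114) and with the mean of its probe sets (0.107), PLEC (0.0803) and LAMB3 (0.0509) without a filter, NECTIN4 with a constant of 64 (0.0626) and LIMA1 with the mean of its probe sets (log2 change 0.17, 0.127). Where no construction shows it, the cause was not tested.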
